A study of Rattus norvegicus with 2 samples.

Results

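The genes described here are 52 genes of mitosis and chromosome segregation, a list chosen with earlier results of these data known. They were looked up by gene name among the 33719 names on a rat expression array. Of the 52 genes, 51 had a probe under the listed name, with 71 probes in all, and 40 had a probe bright enough to be tested, out of 18198 genes tested on the whole array. Liver total RNA of Wistar rats (spelled Wister in the labels) aged 7 weeks, given a choline-deficient diet for 10 days, was compared with liver RNA of rats given a control diet for the same time. No genotype, transgene or drug is named for either group, and the sex is not given in the labels. Each of 2 two-colour arrays held both diets, labelled in swapped dyes. Cy5 marked the choline-deficient liver on array 1, and Cy3 marked it on array 2. The titles name 4 choline-deficient rats, and the labels do not say whether each array had its own rats, a pool, or 1 shared pair of RNA extracts. The p-values below thus rest on how far array 1 and array 2 differ, perhaps for technical reasons alone. That spread is largely pooled over all genes, so a p-value says little about how closely the arrays match for its own gene. If the arrays held the same extracts there is 1 replicate and no test, and the counts by size stand in for it.

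Dividing cells make most of these proteins only as they near mitosis, when cyclin-dependent kinase, Polo and Aurora kinases drive chromosome condensation, spindle building, attachment of kinetochores to microtubules and finally cytokinesis. Adult hepatocytes are mostly quiescent and re-enter the cycle after loss of liver tissue or injury. In quiescent cells a repressor complex called DREAM holds many of these genes down through the cell cycle genes homology region (CHR), a short sequence near the start of transcription, and a related complex with MYBL2 binds it when they are switched on. The trimeric factor NF-Y binds CCAAT boxes, which often lie upstream of a CHR.

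The promoters of 7 of the genes are shown so that the letters can be set beside the array values given further on. Each line holds the 160 bases that end just before the RefSeq gene start (build GRCr8), on the strand of the gene, with TTTGAA or its reverse complement (the CHR letters), TTTAAA (a CHR-like variant) and CCAAT or ATTGG (the NF-Y-type box on either strand) in capitals where they lie wholly inside the stretch. Ect2, Ckap2, Aspm, Mki67 and Cdc20 were higher in choline-deficient liver and hold both kinds of letters, Bub1 was higher and holds only the variant, and Kif23 holds both and did not pass the test. The 7 were chosen after the values were seen.
Ect2 (chr2:111966627-111966786, minus strand): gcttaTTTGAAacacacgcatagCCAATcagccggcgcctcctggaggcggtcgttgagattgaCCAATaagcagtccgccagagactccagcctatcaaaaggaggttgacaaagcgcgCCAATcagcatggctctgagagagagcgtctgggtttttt
Ckap2 (chr16:76541954-76542113, plus strand): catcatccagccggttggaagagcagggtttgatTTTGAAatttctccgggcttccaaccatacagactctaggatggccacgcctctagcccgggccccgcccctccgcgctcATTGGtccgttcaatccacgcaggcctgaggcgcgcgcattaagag
Aspm (chr13:53625424-53625583, plus strand): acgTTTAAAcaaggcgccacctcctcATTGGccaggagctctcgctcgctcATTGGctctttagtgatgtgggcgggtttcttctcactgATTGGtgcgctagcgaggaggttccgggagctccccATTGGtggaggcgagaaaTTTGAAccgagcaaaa
Mki67 (chr1:199952594-199952753, minus strand): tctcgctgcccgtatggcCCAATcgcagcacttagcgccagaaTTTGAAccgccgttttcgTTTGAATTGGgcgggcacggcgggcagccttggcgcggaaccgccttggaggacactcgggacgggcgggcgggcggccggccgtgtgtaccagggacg
Cdc20 (chr5:137255800-137255959, minus strand): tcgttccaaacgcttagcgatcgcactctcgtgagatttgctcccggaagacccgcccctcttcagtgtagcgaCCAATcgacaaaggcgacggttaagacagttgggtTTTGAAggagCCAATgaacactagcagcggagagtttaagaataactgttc
Bub1 (chr3:135504922-135505081, minus strand): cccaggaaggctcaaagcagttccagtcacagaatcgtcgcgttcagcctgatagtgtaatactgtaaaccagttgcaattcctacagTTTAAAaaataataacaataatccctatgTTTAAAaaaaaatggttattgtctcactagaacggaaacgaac
Kif23 (chr8:71320585-71320744, minus strand): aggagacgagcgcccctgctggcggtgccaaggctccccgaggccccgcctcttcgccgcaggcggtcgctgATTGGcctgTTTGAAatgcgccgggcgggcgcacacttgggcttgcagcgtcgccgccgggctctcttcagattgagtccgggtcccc
In Aspm, 4 CCAAT boxes stand upstream of a CHR hexamer that starts 16 bases before the gene start (position -16). In Mki67 a CHR hexamer at -99 runs into a CCAAT box at -94. Ect2 has a further TTTGAA at -3 that crosses the start and so is not in capitals.

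The mitosis genes were higher in choline-deficient liver as a group. Of the 40 tested, 32 were higher and 0 lower by limma, a linear model with variances moderated across genes, at a Benjamini-Hochberg adjusted p under 0.05 over all 18198 genes, and 8 did not pass. Over all genes tested, 4.37% were higher and 4.25% lower by the same rule. Because the list was chosen with earlier results of these data known, this contrast is a description and not independent support. The median log2 ratio of choline-deficient over control, the mean of both arrays, was 0.53 over the 40 genes, a fold of 1.44, and 0.00025 over all genes. It was 0.42 on array 1 and 0.60 on array 2. The 32 genes ranged from 0.34 to 1.36 in log2 ratio, or 1.27- to 2.57-fold. By size alone, 14 of the 40 were at least 1.5-fold higher on both arrays, as were 0.852% of all genes. At least 2-fold higher on both were 4 of the 40, and 35 of all 18198 genes. The count of 4 was 6 with an offset of 16 in the background correction, 3 with the mean of all kept probes, 18 with the deposited ratios and 0 with median centring. Array 2 alone had 22 of the 40 genes at least 1.5-fold higher and array 1 alone 16. Shares over all genes are not given for these alternatives or for single arrays. Both choline-deficient levels lay above both control levels in 36 of 40 genes, as they did in 23.2% of all genes. Of the 100 genes with the highest mean log2 ratio on the array, 13 were on this list.

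The adjusted p depended on the normalization, while the direction did so far less. With the authors' deposited log ratios, turned to log2, 0 of the 40 genes passed by limma, 37 had an unadjusted p under 0.05, and the smallest adjusted p was 0.193. Of all 18198 genes, 0 passed by limma with these ratios, and 2122 had an unadjusted p under 0.05. The deposited ratios were larger. Their median was 1.08, or 2.11-fold, and 31 genes were at least 1.5-fold higher on both arrays, against 1.71% of all genes. With each array centred on its median and no intensity-dependent dye correction (loess), 0 of the 40 passed by limma and 2, Ect2 and Ckap2, had an unadjusted p under 0.05, with smallest adjusted p 1.00. Of all 18198 genes, 0 passed by limma with median centring, and 19 had an unadjusted p under 0.05. There the median of the 40 genes was 1.00 on array 1 and 0.43 on array 2. Of the 40, 10 were at least 1.5-fold higher on both arrays, against 0.275% of all genes. Their SD between arrays had a median of 0.43 against 0.12 after loess. The number with a mean log2 ratio above 0 was 38 after loess, 39 with the deposited ratios and 39 with median centring, all of 40.

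**Figure D1:**
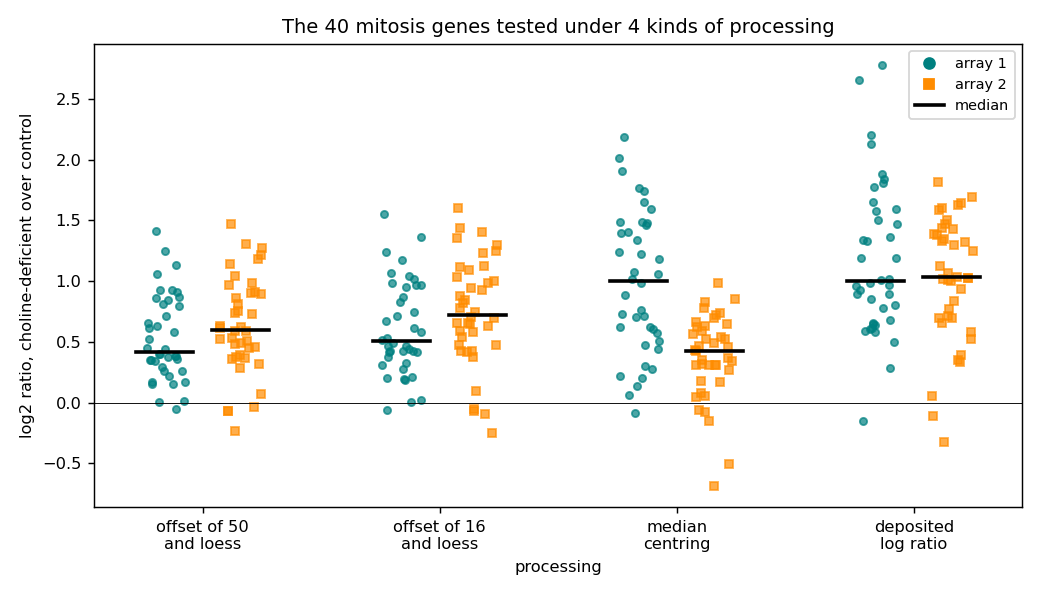
Log2 ratio of choline-deficient over control (y axis) of the 40 mitosis genes tested, on array 1 (circles) and array 2 (squares), under 4 kinds of processing (x axis), with black bars at the medians. After loess with an offset of 50 the medians are 0.42 and 0.60, with median centring they part to 1.00 and 0.43, and with the deposited log ratio both are near 1.

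Levels below are normalised log2 levels of a probe in each diet, and can be set against each other only within a probe. Each pair of values is given in the order array 1, array 2, each SD is over the 2 arrays (n = 2), and each adjusted p is from limma over all genes. After loess with an offset of 50, the 4 genes at least 2-fold higher on both arrays were Ect2, Ckap2, Aspm and Mki67, a set that other processing makes larger or empties (18 genes with the deposited ratios and 0 with median centring).

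Each gene is counted under a single role. Among the mitotic kinases not placed in another role, 3 of 3 tested were higher, of 5 listed. The kinases Bub1, Ttk and Aurkb are counted in other roles below. Plk1, the Polo kinase that drives mitotic entry, spindle assembly and cytokinesis, had levels of 8.42 and 8.03 in control and 9.03 and 9.21 in choline-deficient liver. Its log2 ratio was 0.61 on array 1 and 1.18 on array 2, a mean of 0.90 ± 0.40 and 1.86-fold higher (adjusted p = 1.07e-09). Array 2 gave nearly double the log2 ratio of array 1, the widest gap between arrays among the genes called, and the diets did not overlap. A further Plk1 probe gave 0.38 and 0.43. Melk, a kinase made in proliferating cells, gave 0.44 and 0.52, a mean of 0.48 ± 0.057 (adjusted p = 3.93e-04). Aurka, the Aurora kinase of centrosomes and spindle poles, gave 0.36 and 0.53, a mean of 0.45 ± 0.13 (adjusted p = 0.00123). Nek2, a centrosome kinase, and Plk4, which starts centriole duplication, were not bright enough to be tested, and their probes gave -0.04 and 0.30 on average.

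All 7 of 7 genes of the spindle checkpoint and anaphase were higher. Bub1, a checkpoint kinase of the kinetochore, had levels of 8.24 and 7.98 in control and 9.16 and 9.28 in choline-deficient liver. Its log2 ratio was 0.93 on array 1 and 1.31 on array 2, a mean of 1.12 ± 0.27 and 2.17-fold higher (adjusted p = 1.76e-13). All choline-deficient values were thus well above the control ones, by more on array 2. Ttk, the kinase (also called Mps1) that starts checkpoint signalling, had levels of 7.93 and 7.40 in control and 8.79 and 8.44 in choline-deficient liver, and a log2 ratio of 0.95 ± 0.13 (adjusted p = 2.73e-11). A dimmer Ttk probe gave only 0.07 and 0.09 (adjusted p = 0.828 in a limma fit over all kept probes), so the probes of this gene disagree. Cdca3, an adaptor for degradation of the mitotic inhibitor Wee1, gave 0.87 and 0.99 (adjusted p = 5.87e-11).

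The other checkpoint genes had smaller ratios. Mad2l1, the Mad2 protein that inhibits the anaphase-promoting complex, gave 0.53 and 0.63 (adjusted p = 1.60e-05), and its further probe 0.55 and 0.46. Bub1b, the BubR1 subunit of the same inhibitor, gave 0.39 and 0.76 (adjusted p = 3.25e-05). Its array 2 value was close to double that of array 1, while a further kept probe gave 0.45 and 0.29. Espl1, the separase that cuts cohesin at anaphase, gave 0.35 and 0.59 (adjusted p = 6.48e-04). Cdc20, the activator of the anaphase-promoting complex, had levels of 8.99 and 9.06 in control and 9.39 and 9.45 in choline-deficient liver, a log2 ratio of 0.39 ± 0.007 (adjusted p = 0.00496). Both choline-deficient levels lay above both control levels in all 7 genes, as they did in 23.2% of all genes tested.

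The chromosomal passenger complex, which corrects wrong attachments at centromeres and later moves to the midzone, had 1 of 3 tested members higher, of 4 listed. Birc5 (survivin), which brings the complex to centromeres, had levels of 8.44 and 8.37 in control and 9.09 and 8.75 in choline-deficient liver. Its log2 ratio was 0.66 on array 1 and 0.38 on array 2, a mean of 0.52 ± 0.19 (adjusted p = 1.53e-04), here with array 1 the higher. Aurkb, the kinase of the complex, gave 0.16 and 0.32 (adjusted p = 0.17) and was well above background on 1 of 2 control arrays. Incenp, its scaffold, gave 0.34 and -0.07, of opposite sign on the arrays (adjusted p = 0.621). Cdca8 (borealin) was well above background on no array.

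At the centromere and kinetochore, 7 of 8 tested genes were higher, of 10 listed. The SD between arrays ran from 0.0021 for Cenpk to 0.25 for Ndc80. Cenpw, a histone-fold protein of the inner kinetochore, had levels of 7.71 and 7.56 in control and 8.63 and 8.53 in choline-deficient liver, a log2 ratio of 0.95 ± 0.031 and 1.93-fold higher (adjusted p = 2.73e-11). Its other 2 probes gave means of 0.61 and 0.56. The NDC80 complex, which holds the plus ends of microtubules, has 4 subunits, all on the list. Nuf2 gave 0.82 and 0.91 (adjusted p = 5.80e-10), Spc25 gave 0.84 and 0.86 (adjusted p = 8.31e-10) and Spc24 gave 0.79 and 0.90 (adjusted p = 1.11e-09). These 3 subunits were 1.82-, 1.81- and 1.80-fold higher, while Ndc80 itself had levels of 7.48 and 7.15 in control and 7.49 and 7.51 in choline-deficient liver. Its log2 ratio was 0.00 on array 1 and 0.36 on array 2 (adjusted p = 0.397), so its diets were level on array 1 and apart on array 2; the difference between Ndc80 and its partners was not tested.

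Cenpk, another inner kinetochore protein, gave 0.58 and 0.59 (adjusted p = 1.23e-05). Cenpa, the histone H3 variant that marks centromeres, gave 0.40 and 0.45 (adjusted p = 0.00222) and was well above background on 1 of 2 control arrays. Ska1, which couples kinetochores to shortening microtubules, gave 0.29 and 0.49 (adjusted p = 0.00563). No control array had it well above background, so its fold is a bound. The bound was 1.29-fold higher. It set the mean choline-deficient level against, per array, the higher of its own control level and the lowest level of any probe well above background. On array 1 its own control level, 6.98, exceeded that lowest level, 5.24, so there the bound is only the measured ratio. Cenpe, a kinetochore motor, and Cenpf, a large kinetochore protein, were not tested.

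Mitotic kinesins are motors that move chromosomes and slide or shorten microtubules. Of those not placed in another role, 3 of 5 tested were higher, of 7 listed. The kinesins Kif20a and Kif23 are counted with the midzone genes. Kif22, the chromosome-bound motor that pushes chromosome arms from the poles, had levels of 7.78 and 7.77 in control and 8.69 and 8.51 in choline-deficient liver, a log2 ratio of 0.82 ± 0.12 (adjusted p = 3.06e-09). Kif20b gave 0.38 and 0.62 (adjusted p = 2.37e-04). Kif15, which helps to keep the spindle bipolar, gave 0.22 and 0.61 (adjusted p = 0.00388), with 1 of 2 control arrays well above background. Kif18a, which damps chromosome movements at the metaphase plate, missed the threshold with close values of 0.26 and 0.29 (adjusted p = 0.084), and Kif2c, which takes microtubule ends apart, gave 0.16 and 0.07 (adjusted p = 0.707). Kif11, the motor that separates the poles, was too dim. Kif4 had no probe of that name. A probe named Kif4a, for which RefSeq lists Kif4 as a synonym, was too dim and gave -0.04 and 0.07.

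Among spindle assembly genes 4 of 5 tested were higher, of 6 listed. Ckap2, a microtubule-associated protein of the spindle (probe at chr16:74518351-74518410 in rn4), had levels of 8.16 and 7.92 in control and 9.58 and 9.19 in choline-deficient liver. Its log2 ratio was 1.42 on array 1 and 1.27 on array 2, a mean of 1.34 ± 0.10 and 2.54-fold higher (adjusted p = 4.30e-17). Aspm, which focuses microtubules at spindle poles (probe at chr13:52860527-52860586), had levels of 8.32 and 8.21 and 9.45 and 9.35 in the same order, and the arrays gave the same log2 ratio to 2 decimals, 1.14 and 1.14 (adjusted p = 2.81e-14). For both genes the levels of the diets lay over a log2 unit apart on each array. Spag5 (astrin), a spindle and kinetochore protein, gave 0.71 and 0.46 (adjusted p = 1.67e-05), higher on array 1, with 1 of 2 control arrays well above background. Tpx2, the activator of Aurora A on the spindle, gave 0.35 and 0.37 (adjusted p = 0.0123). Tacc3, which crosslinks spindle fibres, gave 0.02 and -0.04 (adjusted p = 0.994), and Nusap1 was well above background on no array.

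In the midzone and cytokinesis group 3 of 4 tested genes were higher, of 6 listed. Ect2, the exchange factor that activates RhoA at the cleavage site (probe at chr2:112969387-112969446), had the highest mean ratio on the list after loess and the rank of 14 among all genes. With the deposited ratios it came after Ska1 (2.02), Spag5 (1.92), Ckap2 (1.91) and Nuf2 (1.90), at 1.81, and with median centring Ckap2 was level with it. Its levels were 8.26 and 8.09 in control and 9.503 and 9.559 in choline-deficient liver. The log2 ratio was 1.25 on array 1 and 1.47 on array 2, a mean of 1.36 ± 0.16 and 2.57-fold higher (adjusted p = 3.25e-17). Its levels in the diets did not overlap, though a further Ect2 probe was well above background on no array. Racgap1, which with Kif23 forms the centralspindlin complex that recruits Ect2, had levels of 7.59 and 7.25 in control and 7.85 and 8.06 in choline-deficient liver, and log2 ratios of 0.26 and 0.81 (adjusted p = 1.74e-04), about 3 times as large on array 2. A further kept Racgap1 probe gave 0.16 and 0.36 and did not pass (adjusted p = 0.141 in the limma fit over all kept probes). Kif23, the motor of that complex, had levels of 8.58 and 8.56 and 8.76 and 8.49 in the same order, which overlapped, and log2 ratios of 0.17 and -0.06 (adjusted p = 0.919). Kif20a, the motor that carries the passenger complex to the midzone, gave 0.45 and 0.90 (adjusted p = 1.17e-06). Prc1, the midzone bundling protein, and Cep55, which recruits the abscission machinery, were well above background on no array.

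Of the condensins and chromosome structure genes, 4 of 5 tested were higher, of 7 listed. Mki67, which encodes the proliferation marker Ki-67 that coats mitotic chromosomes (probe at chr1:195310355-195313039), had levels of 8.10 and 7.88 in control and 9.16 and 9.10 in choline-deficient liver. Its log2 ratio was 1.06 on array 1 and 1.21 on array 2, a mean of 1.14 ± 0.11 and 2.2-fold higher (adjusted p = 3.51e-14), and a further probe gave 0.30 and 0.79. Every choline-deficient value of either probe exceeded the control one on its array. Top2a, the topoisomerase that untangles sister chromatids, gave 0.63 and 0.73 (adjusted p = 4.84e-07), but its further probe gave 0.06 and 0.23. Smc4, a core condensin subunit, gave 0.38 and 0.48 (adjusted p = 0.00192). Cdca2, which targets a phosphatase to chromatin at mitotic exit, gave 0.17 and 0.51 (adjusted p = 0.0236, and 0.0611 with no filter on dim probes). Ncapd2, a subunit of condensin I, gave -0.05 and -0.23 (adjusted p = 0.575) and, with its further probe, 0.12 and 0.19, so its sign rests on the probe. Smc2 and Ncapg, also condensin subunits, were not tested.

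**Figure D2:**
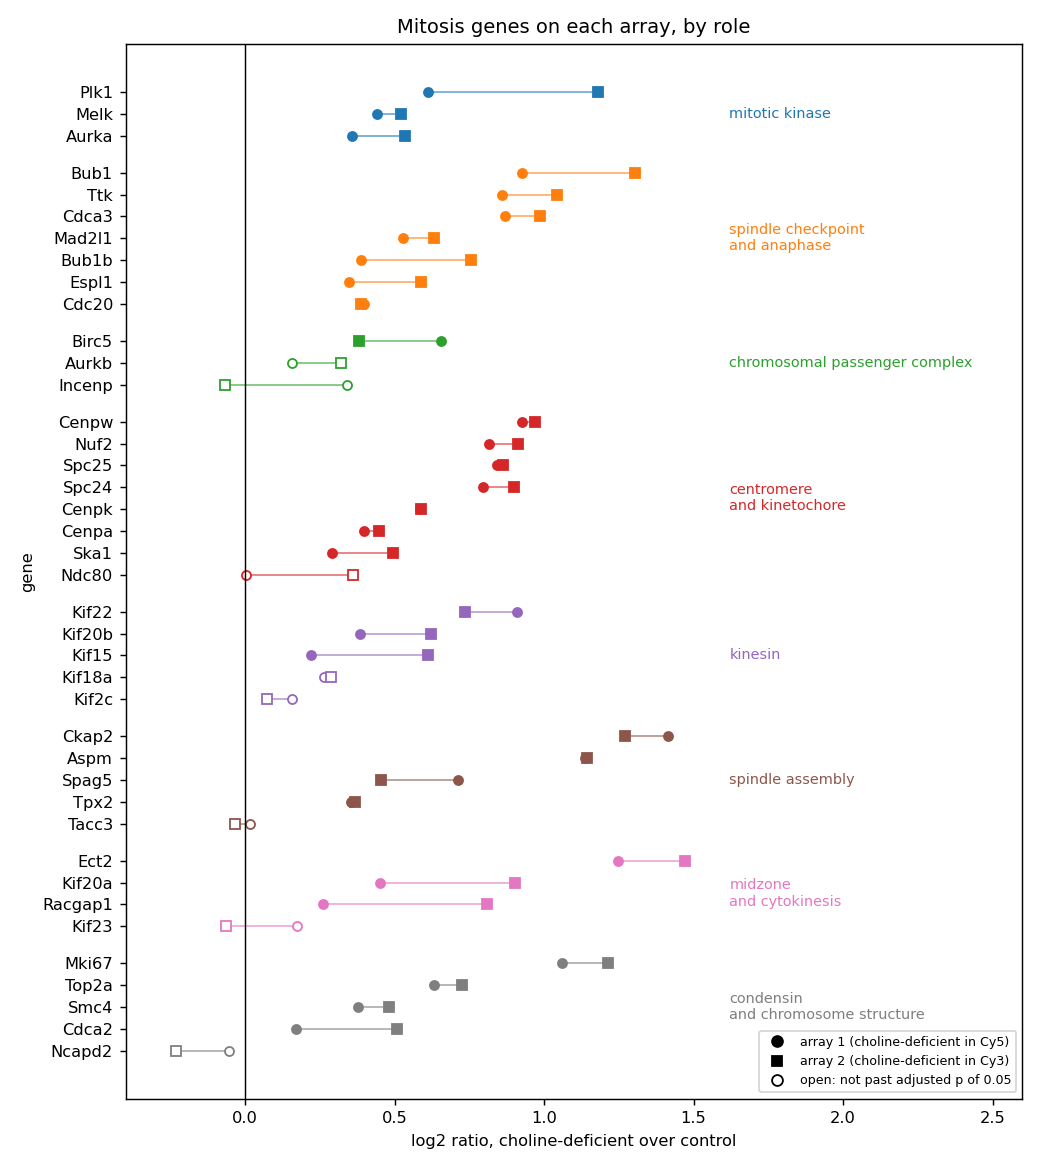
Log2 ratio of choline-deficient over control (x axis) on array 1 (circle) and array 2 (square) of the 40 mitosis genes tested (y axis), grouped by role and coloured by it. Filled symbols passed an adjusted p of 0.05; all 7 checkpoint genes are filled, and the 8 open genes lie between -0.14 and 0.27 on average.

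Probes and detection bear on these counts. The 11 genes with a probe but none kept (Cenpe, Cenpf, Cdca8, Ncapg, Smc2, Kif11, Cep55, Prc1, Nek2, Plk4 and Nusap1) had 14 probes, 9 of them well above background on no array in either diet, with log2 ratios from -0.04 to 0.30. In a fit with no filter on dim probes 0 of the 11 passed by limma and 1 had an unadjusted p under 0.05. This was Plk4, with 0.36 and 0.24 (adjusted p = 0.113). Of the 40 tested genes, 7 (Cenpa, Ska1, Aurkb, Kif15, Kif2c, Spag5 and Tacc3) passed the brightness filter only through the choline-deficient diet and 0 only through control. Counting only genes well above background in control on both arrays, 28 of 33 were higher, against 4.3% of 17631 genes filtered the same way, with a median log2 ratio of 0.58. Of 9 genes with several kept probes, 8 had all of them above 0. Array 2 gave the higher ratio in 30 of the 40 genes, whereas it did so in 45.0% of all genes. Across the 40 genes, which share both arrays, the ratios of the arrays had Pearson's r = 0.83 and Spearman's rho = 0.82, a description with no test.

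**Figure D3:**
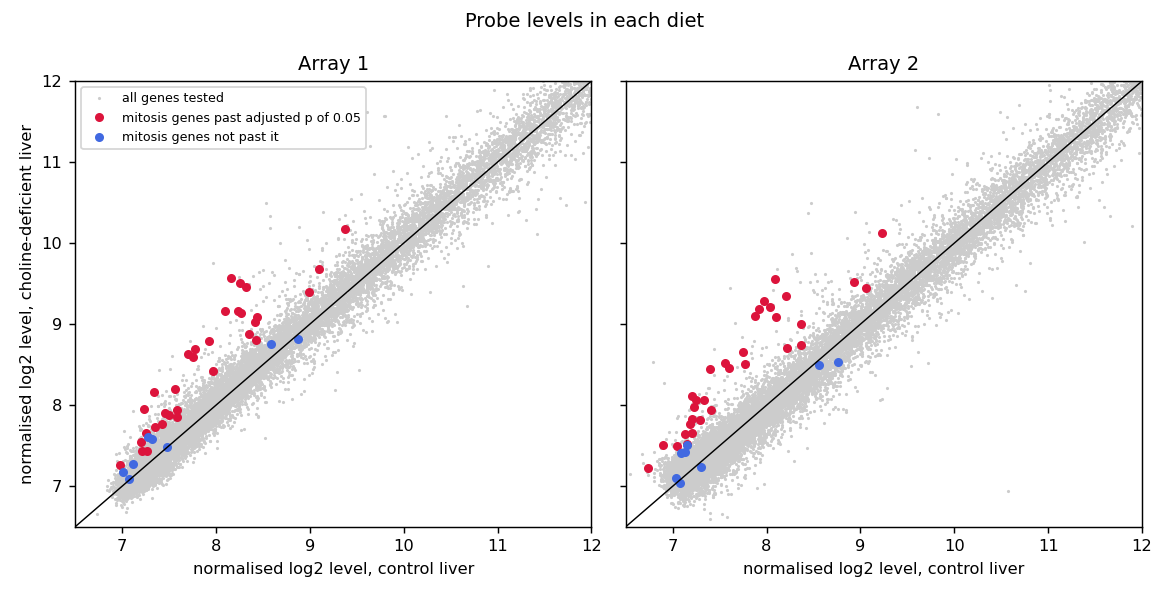
Normalised log2 level in choline-deficient (y axis) against control liver (x axis) of each gene's probe on array 1 and array 2, for all 18198 genes tested (grey) and the 40 mitosis genes (red where past the adjusted p of 0.05, blue where not). The axes run from 6.5 to 12, so brighter genes are not shown; the red points lie above the line of equal levels on both arrays.

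A wider list of cell-cycle genes also held higher genes and no lower ones. Of 70 other mitosis genes, 60 were on the array and 42 were tested, with 19 higher, 0 lower and a median log2 ratio of 0.27. The share higher was 45.2%, against 4.37% of all genes tested. The mitotic cyclins and their kinase were among them. Cdk1, the kinase that triggers mitosis, gave 1.24 and 1.43 (adjusted p = 5.69e-17), Ccnb1 gave 0.77 and 0.81, Ccnb2 0.60 and 0.75 and Ccna2 0.73 and 0.76. Kifc1, a minus-end motor, gave 0.83 and 1.17, and Pttg1, the securin that holds separase in check, gave 0.97 and 0.95. Pbk, a mitotic kinase, gave 0.61 and 0.77 and Kntc1, a kinetochore protein of the checkpoint, 0.52 and 0.74. Genes that serve chromosome segregation but are made throughout the cycle or in resting cells were mostly not called. Of 44 listed, 38 were on the array and 36 tested, 2 of them higher, 1 lower, with a median of 0.07. The share higher, 5.56%, was near the 4.37% of all genes tested, of which 4.25% were lower. The called genes were Ran, the GTPase of nuclear transport and spindle assembly (0.64 and 0.43), Dynll1, a dynein light chain (0.36 and 0.44), and the lower Stag1, a cohesin subunit (-0.52 and -0.53). The difference between the lists was not tested.

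**Figure D4:**
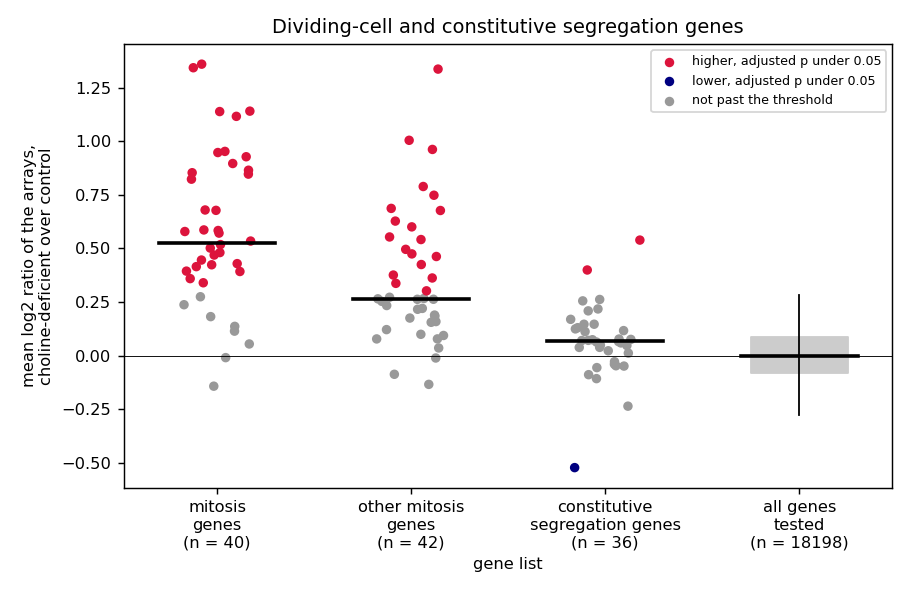
Mean log2 ratio of both arrays, choline-deficient over control (y axis), of the 40 mitosis genes, 42 other mitosis genes and 36 constitutive segregation genes tested (points; red higher, dark blue lower, grey not past the threshold; bars are medians of 0.53, 0.27 and 0.07), beside all 18198 genes (grey box for the middle 50%, whisker for the 5th to 95th percentile). The points of the mitosis genes lie mostly above the whisker, and those of the constitutive genes mostly within it.

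Whole liver was measured, so more dividing cells and more of these transcripts per cell cannot be told apart, and the array does not show which cells hold them. Among markers of liver cell types, 2 of 10 macrophage genes tested were higher, Marco, a scavenger receptor (0.82 and 1.00), and Lyz2, a lysozyme (0.86 and 0.52), and 0 were lower. Cd68 gave 0.07 and 0.26 and Csf1r 0.12 and 0.12, neither past the threshold. The median of the 10 was -0.03, with 5 above 0 and 5 below, the lowest being Clec4f, a Kupffer cell lectin, at -0.46 and -0.13 (adjusted p = 0.0627; named after its value was seen). The summed linear level of the macrophage list was 48452 and 44250 in control and 41067 and 44164 in choline-deficient liver. Clec4f and C1qb, the brightest genes of that list, largely set the sum. Of 6 stellate and fibroblast genes, 2 were higher, the collagen Col1a1 (0.54 and 0.51) and the proteoglycan Dcn (0.27 and 0.40), while Lrat gave -0.15 and -0.05 and Des 0.19 and -0.03. That list summed to 6714 and 6939 in control and 6923 and 7169 in choline-deficient liver. The 7 hepatocyte genes, which check the tissue, were well above background in control on both arrays. Of them, 1 was higher, Apoa1 (0.57 and 0.23), and 1 lower, Alb (-0.15 and -0.48), with Ttr at 0.26 and -0.38 and a sum of 457507 and 599902 in control and 534795 and 428863 in choline-deficient liver.

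In the remaining lists, 0 genes were higher by limma. Kdr, an endothelial receptor, was lower (-0.58 and -0.34), 1 of 5 endothelial genes tested, and Pecam1 was too dim to test. Krt19 of bile ducts gave -0.10 and 0.05, 1 of 4 cholangiocyte and oval cell genes tested with none called, and Krt7 was too dim. Of the T, NK and B cell list, 4 of 8 genes were tested with none called, Ptprc gave 0.11 and 0.32 and Cd3e was too dim. Hbb-b1, a globin, was lower (-0.53 and -0.35), 1 of 4 erythroid genes tested, Hbb gave -0.11 and -0.17, and no probe was named Hba1. The summed levels were 32137 and 27968 in control and 22466 and 22660 in choline-deficient liver for the endothelial list, 1150 and 1053 in control and 1205 and 1181 in choline-deficient liver for the cholangiocyte list, 776 and 751 in control and 840 and 802 in choline-deficient liver for the lymphocyte list and 32074 and 33417 in control and 23268 and 27056 in choline-deficient liver for the erythroid list. The mitosis genes summed to 10068 and 9075 in control and 15491 and 14800 in choline-deficient liver. Each of these sums adds across probes, so bright probes weigh most. In the endothelial list Kdr had log2 levels of 14.84 and 14.62 in control, and the next brightest, Lyve1, 10.93 and 10.84. In the erythroid list Hbb-b1 had 14.78 and 14.84 in control, and Tfrc 11.73 and 11.75. The sums alone thus do not show a change shared by the genes of a list. The part that cell makeup has in the mitosis values was not tested.

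In the RefSeq promoters (250 bases before to 50 from the gene start), 47 of the 52 genes had a match, with 48 promoters; Racgap1, Aurkb, Tpx2, Cdca2 and Incenp were named only. The letters TTTGAA, on either strand, stood in 35 of 48 promoters (72.9%) against 18.3% of 33469 promoters in the table, and CCAAT in 34 (70.8%) against 37.5%. Both stood in 27 (56.2%) against 7.41%. Within the stretch from -60 to 40 around the start, TTTGAA was in 27 (56.2%) against 5.54%. The variant TTTAAA was in 27.1% against 13.6% and TTCGAA in 4.17% against 1.69%. Of E2F-type letters, TTTCGCGC was in 0 against 0.326% and TTTGGCGC in 1 (2.08%), that of Kif18a, against 0.493%. TTTAAA and the -60 to 40 stretch were added after the data were seen. The promoters of these genes were also richer in G and C than the table as a whole, with a median of 58.7% against 51.7%. By gene, TTTGAA was in 74.5% of the mitosis genes, 28 of 56 other mitosis genes, 8 of 40 constitutive segregation genes and 18.1% of protein-coding genes. CCAAT was in 72.3% of the mitosis genes, 32 of 56 other mitosis genes, 22 of 40 constitutive segregation genes and 39.8% of protein-coding genes. The CCAAT letters were thus also frequent in the constitutive list.

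The array values of genes with and without these letters lay side by side, and the difference was not tested. Of 26 tested genes with TTTGAA, 22 were higher, with a median log2 ratio of 0.57, and of 9 tested genes whose promoters lack it, 7 were higher, with a median of 0.59. Ect2, Ckap2, Aspm and Mki67 hold it, but so does Kif23, whose printed promoter has TTTGAA at -79 beside a CCAAT box at -88, and Bub1 and Cdca3, both higher, do not. A match is a string of letters and not a measured binding site.

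**Figure D5:**
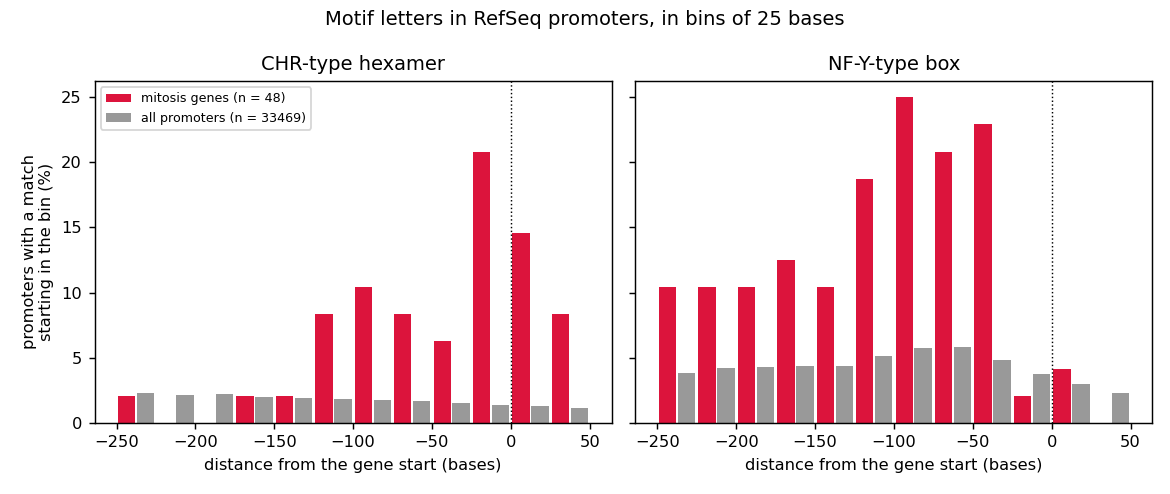
Share of promoters (y axis, %) with a CHR-type hexamer (left) or an NF-Y-type box (right) starting in each bin of 25 bases, by distance from the gene start (x axis, bases; dotted line at the start), for the 48 promoters of the mitosis genes (red) and all 33469 promoters (grey). The CHR-type letters are most frequent in the 25 bases before the start, in 20.8% of the mitosis promoters, and the NF-Y-type box between 100 and 75 bases before it, in 12 of 48.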

How the data were processed

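Both arrays are an Agilent rat design with 45018 spots, 43379 for genes. Images were extracted with Agilent Feature Extraction 9.5.3.1, per the file headers (9.5 in the submitters' processing notes). The deposited scanner files hold each dye's spot and background intensity, and a log10 ratio of the dyes (Cy5 over Cy3) that the authors deposited, which was turned to log2 as an alternative. Detection and outlier flags are the authors' deposited values (other than intensity), per the file headers. The deposited series table equalled that log10 ratio in 45018 of 45018 rows, within 1% of each value, and was not run separately. Between 53.5% and 63.2% of gene spots were well above background per dye and array, and 0 were saturated; the number of arrays, 2, limits the precision.

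Signals were corrected with limma 3.58.1 in R 4.3.3 (normexp, offset 50, which draws ratios of dim spots towards 0) and loess-normalized within arrays, with control spots at weight 0 and outlier spots left out. Levels per diet were further scaled between arrays (Aquantile). Ratios were turned to choline-deficient over control. A probe was kept if well above background on both arrays in at least one diet, and the brightest kept probe stood for a gene. lmFit and eBayes tested the mean against 0, two-sided, with 1 residual and 63.5 prior degrees of freedom, so that the spread is largely pooled over genes. Alternatives changed the offset, the signal, loess, the filter, the probe rule, the variance trend and the arrays used. Named genes are every listed gene, up to 8 called genes of each wider list and, per cell type, up to 3 called markers and the first 2. The genes and lists were chosen with earlier results of these data known. On simulated ratios, large changes were recovered and small ones in part, and false calls exceeded the nominal share, more so where deviations were pooled over genes. Probe coordinates are those of rn4 in the files, and promoters are from RefSeq (GRCr8), with no coordinates carried between builds.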

Additional observations from a re-analysis of the deposited data

How the results depend on the processing

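The count of 32 higher mitosis genes was 32 with an offset of 16, with the mean of all kept probes and with an intensity trend. It was 31 of 51 with no filter on dim probes, and 28 of 33 with a filter in both diets. In a fit on every kept probe, 32 genes had any called probe. That rule passes genes with a further kept probe that was not called, such as Top2a, Ttk and Racgap1. The count fell to 0 with the deposited log ratios and to 0 with median centring, as did the count over all 18198 genes. Of the mitosis genes, 37 and 2 had an unadjusted p under 0.05 by limma in these settings, against 2122 and 19 of all genes. The cause was not tested. Counted by size, with the arrays as 1 replicate, the number of higher mitosis genes was 14. The median log2 ratio of 0.53 became 1.08 with the deposited ratios and lay between 0.43 and 0.62 in the other alternatives that kept both arrays. The 14 genes at least 1.5-fold higher on both arrays became 31 with the deposited ratios, and the 4 at least 2-fold higher became 18 with these and 0 with median centring. Leaving out each array in turn gave 16 to 22 genes at least 1.5-fold higher and a median of 0.42 to 0.60. With 2 arrays such values show the gap between them and are no check of stability. Signs turned in genes that were not called. Ncapd2 was 0.010 with median centring and 0.0059 with the mean of its probes, and Tacc3 was 0.48 with the deposited ratios. The ratio within each array pairs the diets by array only, and the labels name no pairs of rats. The test of these ratios against 0 is thus paired by array throughout. Dim signal limits the 11 untested genes.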
